A study of Mus musculus with 9 samples.

Results

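The AP-1 and immediate-early transcription factors were followed in mouse erythroblasts that carry 0, 1 or 2 copies of a beta-thalassemia allele. The set comprised Jun, Junb, Jund, Fos, Fosb, Fosl2, Atf3, Egr1, Egr2 and Egr3, chosen by name with earlier results of these data known. A probe set was taken as theirs where its platform gene symbol was exactly 1 of these names. All 10 genes had 1 probe set each, out of 19938 genes with a probe set of their own, and all 10 passed the filter on low signal described below. Jun was the 1 member called, while no other member passed the test in any comparison of the genotypes. Of all tested probe sets, 12.3% were called in Th3/Th3 against wild type and 7.27% in Th3/Th3 against Th3/+. The mean signal of Jun was 7.04-fold higher in Th3/Th3 than in wild type cells, with low values raised to the background level described below. Without that step the 95% interval began at 5.38-fold.

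Wild type embryos carried 0 Th3 alleles, Th3/+ embryos 1 and Th3/Th3 embryos 2, where Th3 is a deletion of the adult beta-globin genes. All came from matings of Th3/+ parents of a 129SV background backcrossed to C57BL/6 for 9 generations, and were taken at E14.5, that is, in mid-gestation. Fetal liver cells positive for CD71 and Ter119 with high forward scatter were sorted, 35 ng of RNA was amplified, and 3 biological replicates per genotype were hybridised to 1 whole-transcript array each (9 arrays). Whether a replicate stands for a single embryo or for pooled livers is not in the labels, so p-values measure the spread between these samples. Each RNA sample is a bulk of sorted cells, in which fewer cells of a type and less RNA per cell cannot be told apart.

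AP-1 is a family of leucine-zipper dimers: Jun proteins pair with each other or with Fos proteins, whereas Fos proteins need a Jun partner to bind DNA. Jun, Fos, Atf3 and the EGR zinc-finger genes are immediate-early genes, whose transcription can start within minutes of a growth factor or stress signal without new protein synthesis, and whose transcripts are short-lived. MAP kinases act on both layers: JNK phosphorylates Jun, and ERK phosphorylates the SRF cofactors that switch on Fos and Egr1. In blood formation, AP-1 and EGR factors are best known from myeloid differentiation and from the response of cells to stress.

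The start regions of Jun, Junb and Fos are shown because these are the gene that rose, a close relative, and the classical partner of both, and neither of the latter passed the test. Each run gives the 250 bases before the RefSeq transcription start on the gene's own strand, 5′ to 3′, in build GRCm38.p6: chr4:95052223-95052472 on the minus strand for Jun, chr8:84978749-84978998 on the minus strand for Junb, and chr12:85473640-85473889 on the plus strand for Fos. Capitals mark TGACATCA, an AP-1 like element, in Jun, and TGACG, the core shared by cyclic AMP response elements, in Junb and Fos.
Jun: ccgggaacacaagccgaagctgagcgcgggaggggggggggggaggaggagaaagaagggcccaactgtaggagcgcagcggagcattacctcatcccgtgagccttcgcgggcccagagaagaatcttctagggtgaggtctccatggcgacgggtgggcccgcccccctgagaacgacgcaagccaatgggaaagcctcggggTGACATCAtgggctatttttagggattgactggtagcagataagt
Junb: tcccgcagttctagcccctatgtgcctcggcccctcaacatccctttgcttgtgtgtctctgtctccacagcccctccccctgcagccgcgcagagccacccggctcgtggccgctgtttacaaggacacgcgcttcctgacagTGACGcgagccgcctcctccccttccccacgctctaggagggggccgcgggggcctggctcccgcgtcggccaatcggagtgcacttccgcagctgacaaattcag
Fos: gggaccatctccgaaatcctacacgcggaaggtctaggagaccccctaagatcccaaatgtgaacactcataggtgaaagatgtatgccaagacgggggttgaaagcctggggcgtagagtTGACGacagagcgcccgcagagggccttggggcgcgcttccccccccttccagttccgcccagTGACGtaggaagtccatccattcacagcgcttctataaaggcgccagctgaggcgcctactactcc

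The Jun window held TGACATCA from base -45 to base -38, counted back from the start site, and 2.93% of the 32851 mouse windows of this length held it on either strand. No other member whose window was used held these letters. TGACG lay at bases -106 to -102 in Junb, and at -129 to -125 and -66 to -62 in Fos. It was found on either strand in 7 of the 12 windows of the 8 members whose windows were used (in Junb, Fos, Fosb, Atf3 and 3 overlapping windows of Egr2). Of all windows 17.8% held it. TGACG also lies within the full cyclic AMP response element TGACGTCA, which none of the 8 members held (1.55% of all windows). The CArG box, the sequence that SRF binds, was found in Egr2 (in 4 of its 5 start windows) and in 1.47% of all windows, and the EGR site GCGNGGGCG in Fosb and Fosl2 and in 4.7% of all windows. The AP-1 consensus TGANTCA (6.75% of all windows) and the heat shock element (0.466%) were in none of the 8. A match is a description of the letters. Windows of Egr1 and Egr3 were not used here, so the counts say nothing of these genes.

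Values are log2 signals, 1 per probe set and array, on a scale from 1.78 to 14.26 with array medians of 4.97 to 5.05. Signal near the 40th percentile of an array, 4.52 to 4.62 here, was taken as near background, and the 17742 probe sets above their array's 40th percentile on at least 3 of the 9 arrays were tested. Levels of different probe sets are not comparable, so each member was compared only with itself across arrays. Many deposited values were exactly equal between arrays (60.9% of probe sets had such a tie), and among the members Egr1 held the same value on 5 of 9 arrays. The Th3/Th3 labels matched the signal of the deleted genes. The probe sets shared by the adult beta-globin genes held 13.68 to 13.86 on the 6 wild type and Th3/+ arrays and 8.43 to 10.09 on the 3 Th3/Th3 arrays. Wild type and Th3/+ arrays were read as 1 range, so their labels were not checked against each other. On the second principal component, which held 16.7% of the variance, scores fell from replicate 1 to replicate 2 to replicate 3 within each genotype. Replicate 1 of Th3/+ and replicate 1 of Th3/Th3 stood apart from the other arrays on it. Replicate 1 was strictly the highest of its genotype for 6 of 10 members among the wild type arrays, 3 among the Th3/+ arrays and 7 among the Th3/Th3 arrays, against 31.8%, 35.2% and 42.1% of tested probe sets, and the calls and the members' values that moved most without these 2 arrays are given below.

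**Figure D1:**
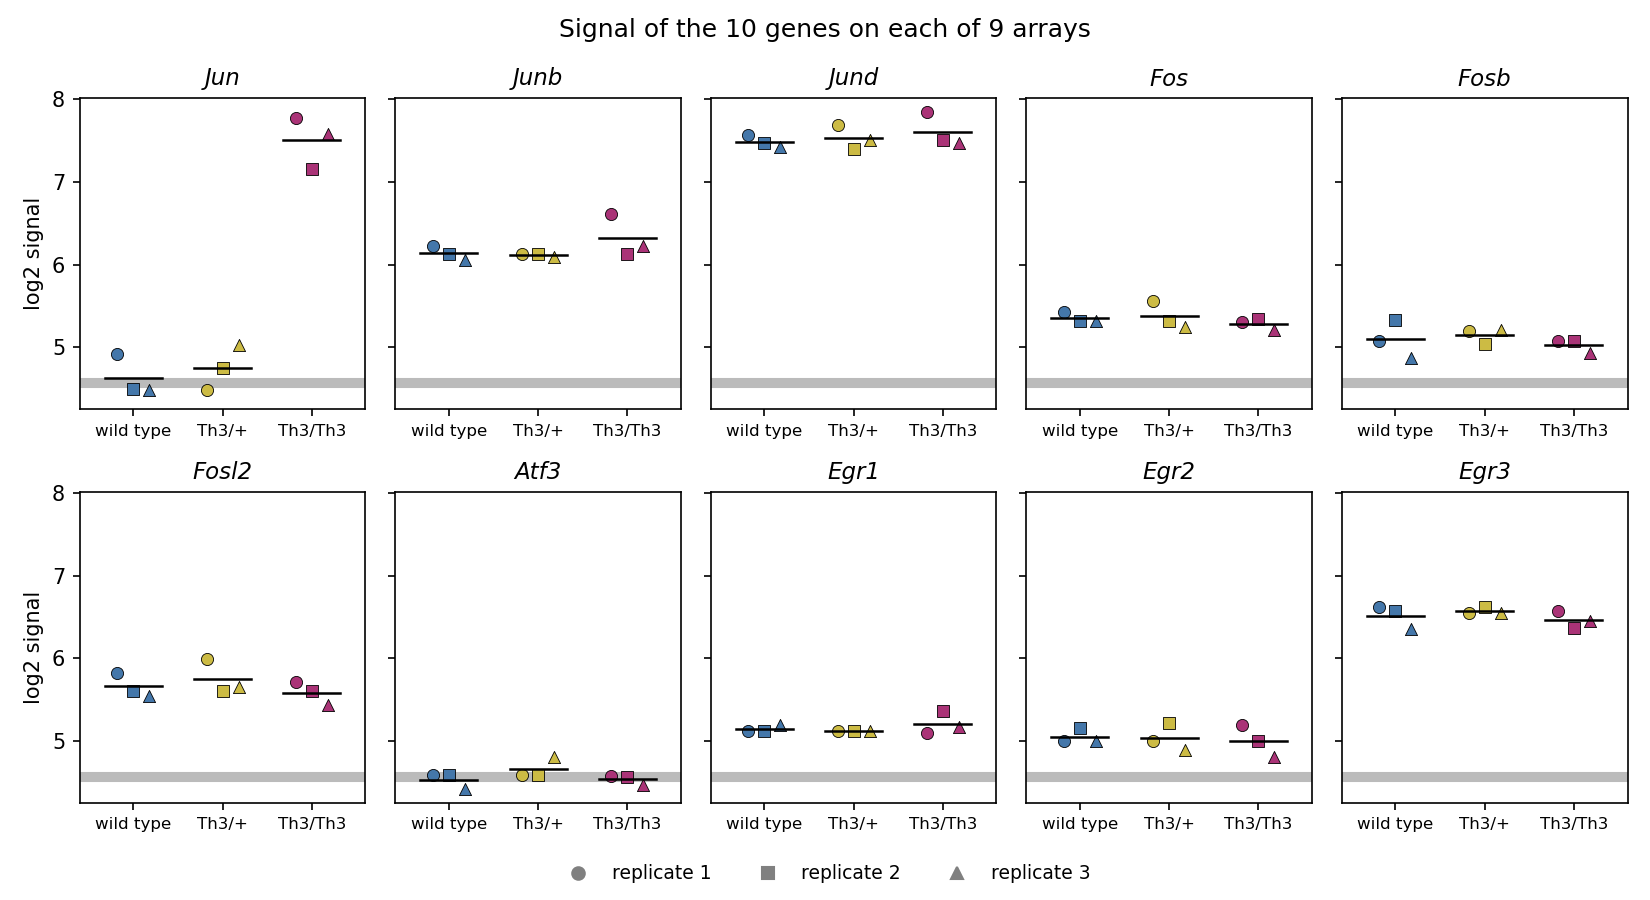
Log2 signal of the 10 genes on each of the 9 arrays, 1 panel per gene, with points for single arrays, a black line for the mean of 3 arrays and a grey band for the range of the arrays' 40th percentiles (4.52 to 4.62). Jun lies between 7.15 and 7.77 on the Th3/Th3 arrays and between 4.48 and 5.02 on the others, while the genotypes of the other genes lie at similar levels; levels are not comparable between panels.

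The Jun family was taken first. Jun encodes c-Jun, the AP-1 subunit that JNK phosphorylates and that can raise transcription of its own gene. Its probe set (10514466) read 4.92, 4.50 and 4.49 on the wild type arrays, 4.48, 4.75 and 5.02 on the Th3/+ arrays, and 7.77, 7.15 and 7.58 on the Th3/Th3 arrays. The 3 Th3/Th3 arrays were all above the 6 others, by at least 2.13, while wild type and Th3/+ arrays overlapped. Mean signal was 4.63 ± 0.25 (log2, SD, n = 3) for wild type, 4.75 ± 0.27 for Th3/+ and 7.50 ± 0.32 for Th3/Th3. Only 1 of 3 wild type arrays and 2 of 3 Th3/+ arrays lay above their own 40th percentile for Jun, against 3 of 3 Th3/Th3 arrays, so its signal was close to background in cells with an intact allele.

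Jun rose by 2.87 in Th3/Th3 over wild type (SE 0.19, 95% interval 2.43 to 3.30; limma, Benjamini-Hochberg adjusted p = 7.45e-05). Over the Th3/+ cells it rose by 2.75 (SE 0.19, interval 2.31 to 3.19, adjusted p = 0.00023). Some of the low arrays lay below their 40th percentile. With every such array raised to that percentile before averaging, the fold was 7.04 over wild type (a difference of 2.82) and 6.51 over Th3/+ (2.70). These folds are lower bounds with regard to background only, and do not cover the spread between arrays. Without that step the 95% intervals began at 5.38-fold over wild type and 4.96-fold over Th3/+. The adjusted p stayed between 4.9e-05 and 0.00104 against wild type, and between 0.000128 and 0.00452 against Th3/+, over all alternatives run. An exact permutation of 3 against 3 arrays gave the smallest p it allows, 0.1, in both comparisons. It cannot reach a lower p with so few arrays, so it cannot decide what the calls rest on. The calls come from limma, which pools variance over probe sets. Whether they hold on the variance of Jun alone was not tested. Both comparisons use the same Th3/Th3 arrays. Without the 2 replicate 1 arrays that stood apart, the rise was 2.73 over wild type and 2.48 over Th3/+ (adjusted p = 0.000748 and 0.00452).

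Junb, which encodes a Jun protein that activates AP-1 sites less strongly than c-Jun in many settings, has a binding partner range much like that of Jun. Its probe set (10580282) read 6.22, 6.13 and 6.05 on the wild type, 6.13, 6.13 and 6.09 on the Th3/+ and 6.61, 6.13 and 6.23 on the Th3/Th3 arrays. The highest value was that of Th3/Th3 replicate 1, an array that stood apart, and the genotypes overlapped. The difference between Th3/Th3 and wild type was 0.19 (SE 0.13, interval -0.10 to 0.47, adjusted p = 0.407), and 0.04 without that array and Th3/+ replicate 1. Jund encodes the Jun protein that is present in most resting cells. Its probe set (10572456) read 7.56, 7.47 and 7.42 on the wild type, 7.68, 7.39 and 7.50 on the Th3/+ and 7.84, 7.50 and 7.47 on the Th3/Th3 arrays. Again replicate 1 was highest in each genotype, the groups overlapped, and Th3/Th3 differed from wild type by 0.12 (SE 0.14, interval -0.19 to 0.44, adjusted p = 0.650), or by 0.01 without both arrays that stood apart.

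In the Fos family no member passed the test. Fos, the classical partner of c-Jun (probe set 10397346), read 5.43, 5.32 and 5.32 on the wild type, 5.55, 5.32 and 5.24 on the Th3/+ and 5.31, 5.34 and 5.20 on the Th3/Th3 arrays. Its Th3/Th3 minus wild type difference was -0.07 (SE 0.09, interval -0.28 to 0.14, adjusted p = 0.692), an interval that lies below the interval of Jun. Fosb encodes a Fos protein best known from neurons and bone. Its signal (probe set 10560481) was 5.08, 5.34 and 4.88 on the wild type, 5.19, 5.04 and 5.20 on the Th3/+ and 5.08, 5.08 and 4.93 on the Th3/Th3 arrays, with overlap of all genotypes and a Th3/Th3 minus wild type difference of -0.07 (SE 0.11, adjusted p = 0.779). Fosl2 encodes Fra-2, a Fos-related protein without the strong activation domain of c-Fos. It read 5.83, 5.61 and 5.55 on the wild type, 5.99, 5.61 and 5.65 on the Th3/+ and 5.71, 5.61 and 5.44 on the Th3/Th3 arrays (probe set 10520862). Replicate 1 was the highest of each genotype here too, and the Th3/Th3 minus wild type difference was -0.08 (SE 0.13, adjusted p = 0.774), or -0.14 without both arrays that stood apart.

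Atf3, a stress-induced leucine-zipper factor that pairs with Jun proteins and lies downstream of ATF4 in the integrated stress response, gave signal close to background. Its probe set (10361091) read 4.58, 4.58 and 4.42 on the wild type, 4.58, 4.58 and 4.80 on the Th3/+ and 4.58, 4.57 and 4.46 on the Th3/Th3 arrays. No wild type array, 2 Th3/+ arrays and 1 Th3/Th3 array were above their own 40th percentile, so it passed the filter on exactly 3 arrays, and a lower level would not have been resolved. The difference between Th3/Th3 and wild type was 0.01 (SE 0.08, interval -0.18 to 0.19, adjusted p = 0.979). Against Th3/+ it was -0.12 (adjusted p = 0.460), with arrays that did not overlap although the nearest ones both round to 4.58.

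The EGR genes encode zinc-finger factors that bind GC-rich sites. Egr1, the member most widely used as a readout of ERK signalling (probe set 10454782), read 5.12, 5.12 and 5.19 in wild type, 5.12 on all 3 Th3/+ arrays, and 5.10, 5.36 and 5.17 on the Th3/Th3 arrays. The 5.36 of Th3/Th3 replicate 2 was the highest value, and the Th3/Th3 minus wild type difference was 0.06 (SE 0.08, interval -0.12 to 0.24, adjusted p = 0.684). Egr2, known for its role in peripheral myelin and in macrophages, read 5.00, 5.16 and 5.00 on the wild type, 5.00, 5.21 and 4.89 on the Th3/+ and 5.19, 5.00 and 4.80 on the Th3/Th3 arrays (probe set 10363735). Egr3, a relative induced by the same signals in lymphocytes and neurons, read 6.62, 6.57 and 6.35 on the wild type, 6.55, 6.63 and 6.55 on the Th3/+ and 6.58, 6.37 and 6.45 on the Th3/Th3 arrays (probe set 10416251). The genotypes overlapped for all 3 EGR genes, and Egr2 and Egr3 each differed by -0.05 between Th3/Th3 and wild type (adjusted p = 0.828 and 0.832).

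Set side by side, 1 of 10 members was called in Th3/Th3 against wild type, where 12.3% of all tested probe sets were called (7.31% higher, 4.98% lower). A count of 1 in 10 is near that background share. The arrays of both genotypes did not overlap for 1 member, Jun, against 27.5% of tested probe sets. The median difference of the 10 members was -0.02, against 0 for all tested probe sets. The other 9 members differed by -0.08 to 0.19, with 4 higher and 5 lower and adjusted p of 0.407 to 0.979. Their 95% intervals all lay between -0.36 and 0.47, that is between 0.778-fold and 1.39-fold. These intervals give the uncertainty of a mean difference, from a variance that limma moderates over all tested probe sets. Whether each transcript was detected was not tested. Fosb spanned 4.88 to 5.34, Egr1 5.10 to 5.36 and Egr2 4.80 to 5.21, beside array medians of 4.97 to 5.05. Exactly equal values were held by 3, 5 and 4 of the 9 arrays for these genes. In Th3/Th3 against Th3/+, 1 of 10 members was called (Jun) against 7.27% of probe sets, of which 4.01% were higher and 3.26% lower. The arrays did not overlap for 2 members, Jun and Atf3, against 22.8% of probe sets, and the other 9 members differed by -0.16 to 0.21 (adjusted p 0.399 to 0.902).

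**Figure D2:**
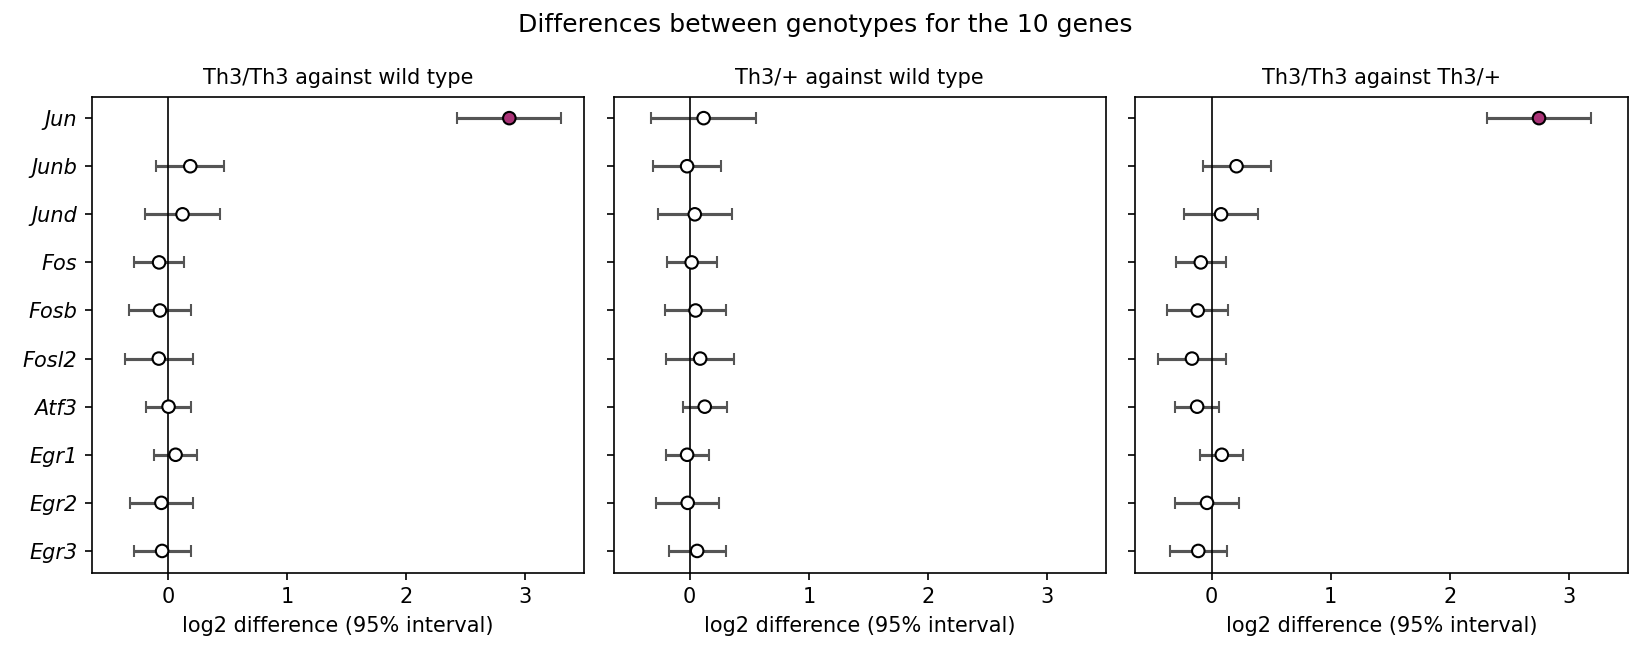
Differences of mean log2 signal (points) with 95% intervals (bars) for the 10 genes in 3 comparisons of the genotypes, with filled purple points for adjusted p under 0.05. Jun stands at 2.87 over wild type and 2.75 over Th3/+ in the Th3/Th3 cells, and every interval of the other 9 genes spans 0.

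Cells with 1 Th3 allele did not share the rise of Jun at a level the test could call. In Th3/+ against wild type 0 of 10 members were called, against 0.0282% of probe sets, and 0 had an unadjusted p under 0.05 in limma. Jun differed by 0.12 (SE 0.19, interval -0.32 to 0.55, adjusted p = 1.00), and the arrays of no member were free of overlap, against 7.63% of probe sets. The other 9 members differed by -0.02 to 0.13, 6 higher and 3 lower, with a median over all 10 of 0.05. Tested directly, Jun in Th3/+ lay below the midpoint of wild type and Th3/Th3 (difference -1.32, SE 0.17, interval -1.69 to -0.94, adjusted p = 0.0479). This midpoint is of log2 means, and only 1 of 3 wild type arrays lay above its own 40th percentile for Jun. A lower wild type level, and so a lower midpoint, could not be resolved. Jun was the 1 member called in this test, against 0.0789% of probe sets, with 0.0169% lower and 0.062% higher. That call was near the threshold and was lost in 12 of 18 alternatives, with adjusted p between 0.0129 and 0.270, while the difference stayed between -1.45 and -1.11. It was lost on leaving out wild type replicate 1, 2 or 3 (adjusted p = 0.135, 0.109 and 0.0831), Th3/+ replicate 1, 2 or 3 (0.195, 0.270 and 0.10) or Th3/Th3 replicate 3 (0.102).

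The genes around AP-1 were examined in 8 lists, by role. Of 120 names 106 had a probe set and 89 passed the filter, and 16 of these 89 (18%) were called in Th3/Th3 against wild type, 10 higher and 6 lower, beside 12.3% of all probe sets. In Th3/+ against wild type 0 of the 89 were called by limma, beside 0.0282% of all probe sets, and 7 had an unadjusted p under 0.05. In Th3/Th3 against Th3/+, 8 of the 89 were higher and 3 lower, beside 4.01% and 3.26% of all probe sets. The lists were chosen with earlier results of these data known.

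Other partners in AP-1 dimers (Fosl1, the BATF, JDP and MAF factors, Atf2 and Atf7) gave no call among 10 tested genes, with 4 at an unadjusted p under 0.05 in limma and a median of -0.12. Batf2, a partner of Jun proteins in myeloid cells, held 5.62 ± 0.14 in the wild type arrays and 5.28 ± 0.12 in the Th3/Th3 arrays (difference -0.35, SE 0.10, adjusted p = 0.0518), and passed with the stricter filter (0.0423) and robust eBayes (0.0498). Maff, a small MAF protein, held 4.70 ± 0.08 and 5.00 ± 0.12 (difference 0.31, SE 0.10, adjusted p = 0.0796), and passed with quantile normalization (0.0389), median centring (0.0473) and without Th3/+ replicate 1 (0.0497). Fosl1 did not pass the filter.

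Of 18 kinases and scaffolds upstream of AP-1, 2 were higher and 2 lower, beside 7.31% and 4.98% of all probe sets, and 14 did not pass (median -0.06). Mapk9, which encodes the Jun kinase JNK2, rose from 6.28 ± 0.15 to 7.38 ± 0.50 (difference 1.10, SE 0.22, 2.14-fold, adjusted p = 0.0106). Map3k1, a kinase at the top of the JNK cascade, fell from 7.26 ± 0.05 to 6.36 ± 0.12 (difference -0.90, SE 0.13, adjusted p = 0.00281). Both calls held in all alternatives. Map2k1, the MEK1 kinase of the ERK cascade, was higher by 0.59 (6.28 ± 0.14 to 6.87 ± 0.06, SE 0.13, adjusted p = 0.0201), a call lost without wild type replicate 2 (0.0789), without wild type replicate 3 (0.0638) and without both arrays that stood apart (0.0619). Mapk14, the stress kinase p38 alpha, was lower by a difference of -0.91 (7.98 ± 0.31 to 7.07 ± 0.16, SE 0.22, adjusted p = 0.0269). Its call was lost without wild type replicate 1 (0.0950) or 3 (0.0762) and without Th3/Th3 replicate 1 (0.0682) or 2 (0.0811). Mapk8, which encodes JNK1, did not pass (difference 0.86, adjusted p = 0.0631).

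Among 8 phosphatases that switch MAP kinases off, 1 was called lower and 0 higher, with a median of -0.04. Dusp1, itself an immediate-early gene, went from 9.67 ± 0.17 to 8.92 ± 0.46 in Th3/Th3 (difference -0.76, SE 0.21, adjusted p = 0.0489). Leaving out any 1 array other than Th3/Th3 replicate 1 moved it past the threshold, with adjusted p of 0.0612 to 0.154. Of 9 genes for SRF, its cofactors and the EGR corepressors, 0 were called by limma and 2 had an unadjusted p under 0.05 (median 0.02). Srf, the factor that binds CArG boxes, held 5.45 ± 0.21 and 5.90 ± 0.20 (difference 0.44, SE 0.13, adjusted p = 0.0509), and passed in 6 of 19 alternatives (adjusted p 0.0244 to 0.0486), among them those without wild type replicate 1 (0.0271) and Th3/Th3 replicate 3 (0.0244). Elk4, an ERK-responsive partner of SRF, held 7.63 ± 0.02 and 7.06 ± 0.13 (difference -0.57, SE 0.21, adjusted p = 0.117). It passed without Th3/+ replicate 1 (0.0124), without both arrays that stood apart (0.0154) and with only both groups fitted (0.0301).

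Of 22 other immediate-early genes, 2 were higher and 1 was lower, with a median of -0.05, which is near the 12.3% of all probe sets called. Zfp36, which encodes tristetraprolin, a protein that speeds decay of AU-rich transcripts, rose from 5.59 ± 0.17 to 7.44 ± 0.20 (difference 1.85, SE 0.13, 3.60-fold, adjusted p = 8.72e-05). Gadd45g, a stress gene that can activate MAP kinase signalling, was higher by 0.76 (SE 0.16, adjusted p = 0.0133), a call lost without wild type replicate 3 (0.0542). Ier3, an early-response gene linked to cell survival, fell from 9.47 ± 0.20 to 8.43 ± 0.25 (difference -1.05, SE 0.17, adjusted p = 0.00376). Of 5 regulators of Jun and Fos protein, 1 was higher and 1 lower. Cops5, which encodes the COP9 signalosome subunit first known as Jun activation domain-binding protein, rose from 10.18 ± 0.09 to 10.96 ± 0.05 (difference 0.78, SE 0.09, adjusted p = 0.000643). Det1, part of a ubiquitin ligase that acts on c-Jun, was lower by a difference of -0.37 (SE 0.10, adjusted p = 0.0390). That call was lost on leaving out wild type replicates 1, 2 or 3, Th3/+ replicates 2 or 3, or Th3/Th3 replicates 1 or 2, with adjusted p of 0.0609 to 0.120.

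Among 8 ATF and C/EBP stress factors 4 were higher and 0 lower, beside 7.31% and 4.98% of all probe sets, with a median of 0.66. No member was among them, and this list too was chosen with earlier results of these data known. Ddit3, which encodes CHOP, rose from 9.54 ± 0.15 to 10.92 ± 0.10 (difference 1.39, SE 0.11, adjusted p = 0.000149). Nupr1, a small stress-induced chromatin protein, rose from 6.15 ± 0.45 to 8.31 ± 0.45 (difference 2.16, SE 0.28, 4.48-fold, adjusted p = 0.00143). Trib3, a pseudokinase gene that CHOP and ATF4 regulate, was higher by 1.36 (5.59 ± 0.22 to 6.95 ± 0.82, adjusted p = 0.0265). Cebpg, a dimer partner of ATF4, was higher by 0.74 (8.29 ± 0.04 to 9.03 ± 0.34, adjusted p = 0.0237). The calls of Trib3 and Cebpg were lost without wild type replicate 1 (0.0861 and 0.0766), 2 (0.0524 and 0.0687) or 3 (0.0928 and 0.0664) and without Th3/Th3 replicate 2 (0.0731 and 0.0527).

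Textbook targets of AP-1 and EGR1 gave 1 higher and 1 lower of 9 tested, with a median of -0.03. Hmox1, the heme oxygenase gene that stress factors including AP-1 and NRF2 activate, rose from 7.05 ± 0.30 to 8.80 ± 0.19 (difference 1.75, SE 0.21, 3.37-fold, adjusted p = 0.00116). Tgfb1, a cytokine gene, was lower by a difference of -0.78 (SE 0.17, adjusted p = 0.0185), a call lost without wild type replicate 1 (0.0572) or 3 (0.0515) and without Th3/Th3 replicate 2 (0.0511) or 3 (0.0600). The inflammatory targets Il6, Mmp3, Mmp13, Plau and Timp1 did not pass the filter.

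**Figure D3:**
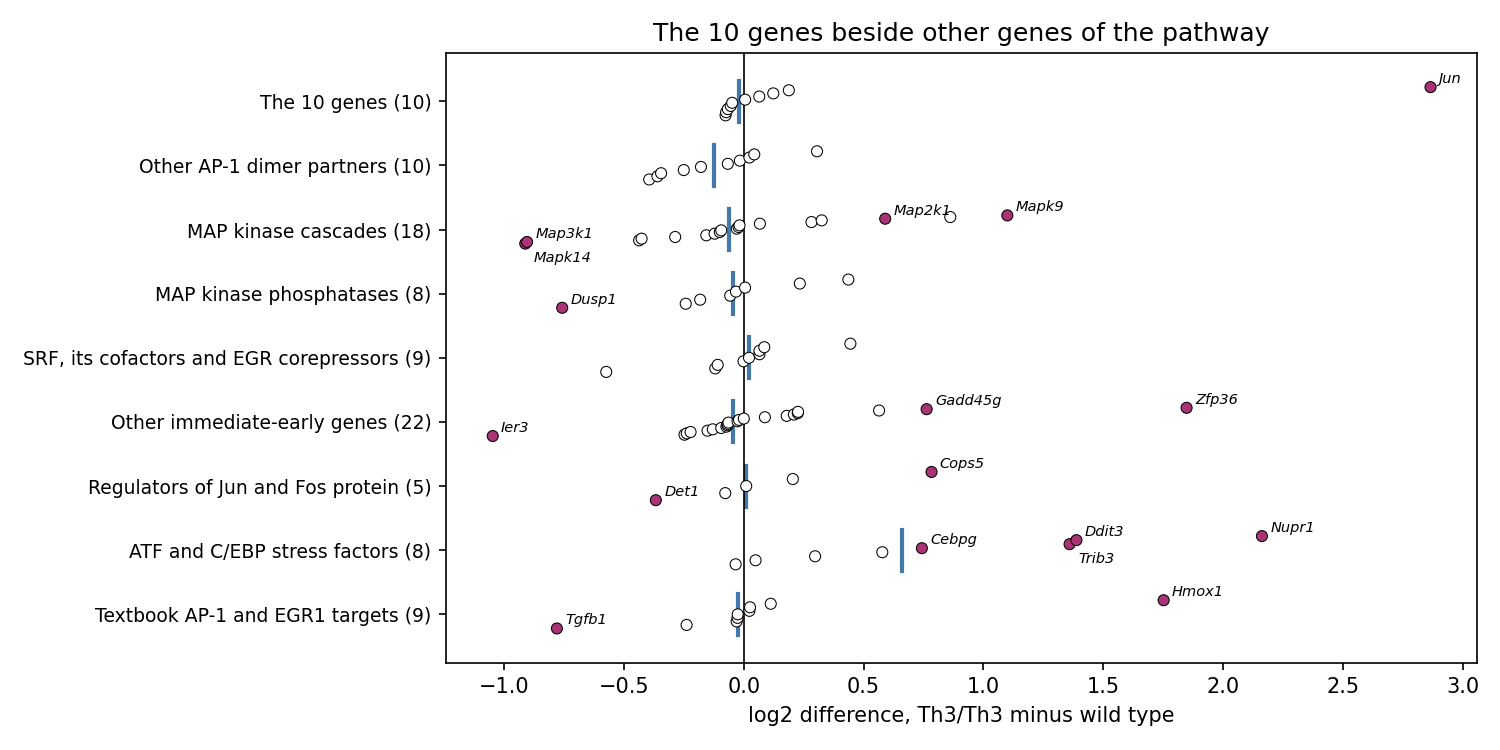
Th3/Th3 minus wild type differences of log2 signal for the 10 genes and for 8 lists of genes around them, with the number of tested genes in brackets, filled purple points for adjusted p under 0.05 and a blue bar for the median of a list. Jun at 2.87 has the largest difference shown, and list medians lie between -0.12 and 0.02 except that of the ATF and C/EBP stress factors at 0.66.

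The profile of Jun over the 9 arrays was compared with that of all 14061 tested single-symbol probe sets other than the members, as the root mean square difference between profiles centred on their means. The 4 nearest genes were Bag3, an HSP70 co-chaperone (0.416), Adprm, an ADP-ribose hydrolase (0.421), Srxn1, the sulfiredoxin of the antioxidant response (0.446), and Nkiras1, a Ras-like gene that restrains NF-kappa-B (0.447). Being chosen for likeness to Jun, their values are a description. Bag3 read 6.43, 5.89 and 6.04 on the wild type, 6.77, 7.01 and 7.01 on the Th3/+ and 9.06, 8.48 and 8.65 on the Th3/Th3 arrays, so its Th3/+ arrays lay above all wild type arrays, which those of Jun did not. The mean Th3/+ minus wild type difference was 0.81 for Bag3, 0.71 for Srxn1 and 0.84 for Nkiras1, against 0.18 for Adprm and 0.12 for Jun, and none of these passed the test (adjusted p = 0.674, 0.501, 0.760, 1.00 and 1.00). The Th3/Th3 minus wild type differences of the 4 lay between 2.42 for Adprm and 2.64 for Nkiras1, beside 2.87 for Jun.

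**Figure D4:**
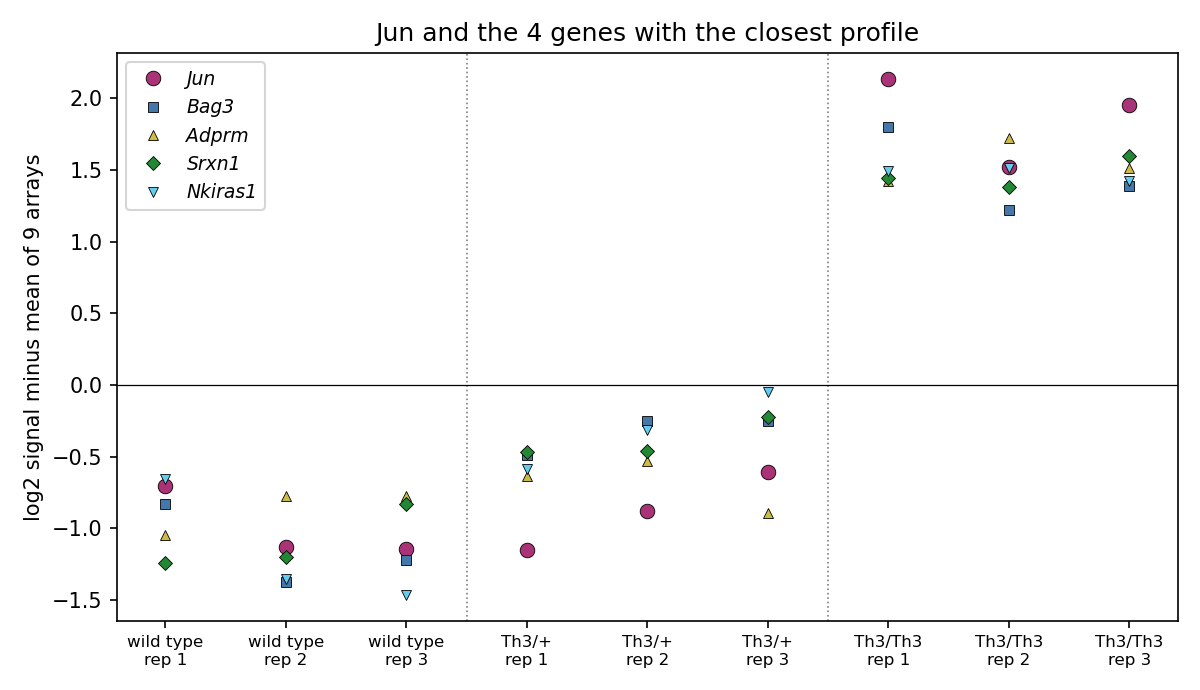
Log2 signal of Jun and of the 4 genes with the nearest centred profiles (Bag3, Adprm, Srxn1 and Nkiras1), each minus its own mean over the 9 arrays. All 5 genes are high on the 3 Th3/Th3 arrays, while the Th3/+ minus wild type difference is 0.12 for Jun and 0.84 for Nkiras1, and neither passed the test.

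For Fos the nearest profiles were those of Gja4, Gm10190, Fam98c and Cngb1 (0.0263 to 0.0315), and for Egr1 those of Grin2d, Dapk3, Npw and Mical1 (0.0268 to 0.0327). Neither set included an immediate-early gene of the lists above. The signal of Fos spanned 5.20 to 5.55 over the 9 arrays and that of Egr1 5.10 to 5.36, so these are likenesses between nearly flat profiles.

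Markers of the sorted cells and of other cells in fetal liver were read beside the rise of Jun. Over all tested probe sets 4.98% were called lower and 7.31% higher in the Th3/Th3 to wild type comparison. Of 8 tested erythroid markers 6 were lower and 0 higher (5 to 8 lower over 19 alternatives), with a median of -0.69. Their summed linear signal was 14176 to 18013 on the Th3/Th3 arrays against 27400 to 31318 on the wild type and 26696 to 28975 on the Th3/+ arrays. Of 17 macrophage marker names 12 were tested, of which 3 (Fcer1g, C1qb and Tyrobp) were lower and 0 higher, with a median of -0.48. Over the alternatives 2 to 5 were lower. The summed signal of the 16 macrophage names with a probe set, tested or not, was 515 to 621 on the Th3/Th3 arrays. It was 734 to 970 on the wild type and 699 to 1158 on the Th3/+ arrays. In such sums the probe sets with the highest signal weigh most. Csf1r, Mrc1, Cd163 and Itgam did not pass the filter, while Adgre1, Cd68, Vcam1, Lyz2 and the C1q genes did. Of 7 megakaryocyte markers 1 (Gp5) was lower and 0 higher, and over the alternatives 0 to 1 were lower. Their summed signal was 661 to 786 on the Th3/Th3, 862 to 1189 on the wild type and 936 to 1127 on the Th3/+ arrays. The granulocyte, mast cell, lymphoid, endothelial, hepatoblast and progenitor lists gave no call, with 6, 1, 1, 5, 8 and 4 genes tested. A list with 1 tested gene says little of its cell type. The part of these shifts in the values of the members was not tested.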

How the data were processed

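The deposited table holds 1 log2 value per probe set and array, made by the authors. Per the submitters' processing notes the tool was MAS5, with no version, and no sources used here name further steps or settle how probes were summarised. No rescaling was applied. Of 35556 probe sets, 6617 below the first annotated identifier were left out as a control block. Of the other 28939, 21789 had 1 gene symbol in the platform annotation, 1621 had several and 5529 were not listed, and genes were named from single-symbol probe sets. The annotation names no build, so probe positions are not given.

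Probe sets above their array's 40th percentile on at least 3 of 9 arrays were kept (17742). In limma 3.58.1 (R 4.3.3), lmFit gave each genotype a mean from all 9 arrays and eBayes with trend gave 4 two-sided contrasts. Benjamini-Hochberg adjustment ran over all 17742, with a call at an adjusted p under 0.05. The procedure was run on simulated data with independent noise for each probe set and array. Those data held neither equal values nor deviations shared between arrays, so the run does not cover these features of the real arrays. Members and lists were chosen with earlier results of these data known. Named genes are all members, from each list up to 4 called genes by smallest adjusted p in Th3/Th3 against wild type (otherwise the 2 with the smallest p), and the 4 nearest profiles of Jun, Fos and Egr1. Genes named as untested or absent, the markers and Mapk8 were added after their values were seen. Start windows and motif counts came from the RefSeq promoter table (GRCm38.p6). Arrays have no read depth, and their number limits the precision. Alternatives covered the filter, normalization, variance model, array weights, replicate block, groups fitted and arrays left out.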

Additional observations from a re-analysis of the deposited data

How the results depend on the processing

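The number of members called stayed at 1 in Th3/Th3 against wild type, 0 in Th3/+ against wild type and 1 in Th3/Th3 against Th3/+ in all alternatives run, and Jun was the gene called. Its difference from wild type ranged from 2.73 to 3.04 and that from Th3/+ from 2.48 to 2.92. The departure of Th3/+ from the midpoint was called in 0 members without the filter, with median centring, with eBayes without trend, with the replicate number as a block and without both arrays that stood apart, and in 0 to 1 members on leaving out 1 array. The replicate block changed no other count of members, and with it Srf passed (adjusted p = 0.0434). Deviations of same-numbered arrays correlated at -0.13 to 0.36, with 6 of 9 such pairs over 0.1, and 6 of 9 arrays correlated best with their own number. The labels do not say what same-numbered arrays share, so the main fit did not take the numbers as pairs. Whether an effect of the replicate number runs through the arrays was not tested. Counts over all probe sets moved more: 2181 calls in Th3/Th3 against wild type became 1444 without wild type replicate 2, 1290 in Th3/Th3 against Th3/+ became 798 with only both groups fitted, 585 without Th3/+ replicate 2 and 775 without Th3/+ replicate 3, 5 in Th3/+ against wild type became 0 to 22, and 14 at the midpoint became 1 to 213. With only both groups fitted, limma no longer called Dusp1 (adjusted p = 0.105), Det1 (0.0832), Trib3 (0.0775) and Cebpg (0.0544), without the filter Dusp1 (0.0751) and Det1 (0.0691), and Det1 was also lost with median centring (0.0586) and without both arrays that stood apart (0.0921). The stricter filter left Atf3 untested, and the midpoint test needs all groups, so it was not run on a pair. Arrays give no depth; Jun in wild type and Th3/+ cells and Atf3 in all genotypes lay so near background that lower levels could not be resolved.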
